A study of Mus musculus with 100 samples.

Results

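The injury response of STR/ort knee joints was set against that of C57BL/6 knee joints 1 week after injury, gene by gene, as the interaction of strain and injury, which is the injured minus uninjured difference of STR/ort less that of C57BL/6. All 17310 genes of the count table entered the comparison, and 19 of the 100 libraries of the series carry it: 5 injured and 5 uninjured joints of C57BL/6, and 5 injured and 4 uninjured joints of STR/ort. The right knees of mice aged 10 weeks were loaded in compression at 10 to 12 N, which ruptures the anterior cruciate ligament, and the uninjured joint is the contralateral one. The labels describe STR/ort as highly and C57BL/6 (C57BL/6J in the text of the study) as moderately susceptible to post-traumatic osteoarthritis (PTOA). The sex is not given in the labels, and all 19 libraries belong to experimental batch 1. Joints were sequenced whole with traces of soft tissue, so that fewer cells of a type and less RNA per cell cannot be told apart. The labels name each library as a sample of its own but do not name the animals at 1-week, so p values measure the spread between libraries. The fit held all 28 libraries of 1-week, so that 9 libraries of another strain, MRL/MpJ, also set the spread behind each p value.

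After rupture of the ligament the synovium, the soft lining of the joint, thickens as its fibroblasts divide and lay down collagen and other matrix. Its lining cells also make lubricin, the product of Prg4, which coats the cartilage surface. STR/ort mice develop osteoarthritis of the knee without injury. The interaction asks in which genes the response to this injury differed between the strains. It compares 2 differences, so a gene can be higher in injured STR/ort joints and still have a lower response, when its uninjured joints are higher too.

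Total counts of the 19 libraries ranged from 7584659 to 12561351, and levels are given as CPM (a library's counts scaled to a common total with TMM factors). Summed over the measured markers of each list, all 18 tissues and cell types had counts, with no measured marker of cartilage, bone, synovium, muscle or marrow at 0 in any of the 4 groups. Skin rests on 1 measured marker of 5 listed, and erythroid cells on 9 of 14. The 15 fast muscle markers summed to 59368 to 103369 CPM in uninjured and 40500 to 78531 CPM in injured C57BL/6 joints, against 38594 to 72588 and 19585 to 42797 CPM in STR/ort. The 12 synovial markers summed to 1251 to 1693 CPM in uninjured and 2951 to 3311 CPM in injured C57BL/6 joints, against 6699 to 19740 and 7800 to 11519 CPM in STR/ort. Most of this sum is Prg4, a gene with a called interaction, so it says little about the other synovial markers. Prg4 alone was at 6094.5 to 18563.2 CPM in uninjured STR/ort and 2405.2 to 2753.3 CPM in injured C57BL/6 joints. The part of tissue composition in the differences below was not tested. When the muscle genes were kept out of the library sizes, which changes the scaling only, 27 genes were called higher and 55 lower.

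At 1-week the response of 85 genes differed between the strains (adjusted p below 0.05 and a difference above 1.5-fold, in a fit without a replicate block), which is 0.491% of the genes tested. In STR/ort the response was lower for 61 of them (0.352%) and higher for 24 (0.139%). Among the genes with a lower response were lubricin (Prg4), fibronectin (Fn1), stromelysin-1 (Mmp3), the collagen XIV gene Col14a1 and the cartilage oligomeric matrix protein gene Comp, and among those with a higher response cardiac troponin T (Tnnt2) and the interleukin-33 receptor (Il1rl1). The call of Comp was marginal, as given below. With 0-day joints as the control, the interaction turned positive for 50 of the 61 genes with a lower response. Prg4, Fn1, Mmp3, Col14a1 and Comp were among these 50. Each strain on its own responded in many more genes, with 982 up and 612 down in STR/ort (5.67% and 3.54%, together 9.21%) and 822 up and 185 down in C57BL/6 (4.75% and 1.07%, together 5.82%). The split of 24 and 61 became 72 and 93 with 2 RUVg factors, 73 and 99 with DESeq2, and 106 and 158 with a replicate block. It was 8 and 34 when the MRL/MpJ libraries were left out of the fit. Without STR/ort uninjured replicate 3 it was 16 and 126, and without STR/ort uninjured replicates 2 and 3 it was 10 and 102. Unless stated, calls at 1-week below are those of the fit without the block. The number of called genes depended on single libraries: it was 142 without STR/ort uninjured replicate 3 and 130 without C57BL/6 uninjured replicate 5, and between 48 and 56 without C57BL/6 injured replicate 1, 2 or 3, C57BL/6 uninjured replicate 1 or 2, or STR/ort injured replicate 1 or 2. In all 19 fits with 1 library left out, 29 of the 61 and 8 of the 24 genes stayed called.

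**Figure D1:**
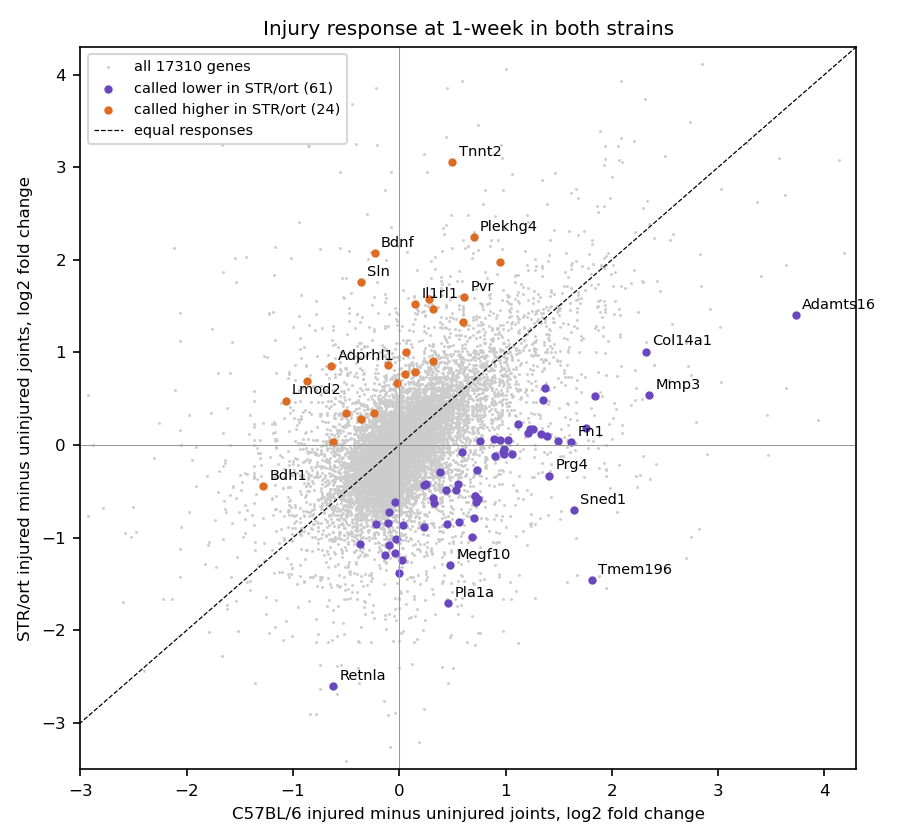
Injury response of every gene at 1-week, as the log2 fold change of injured over uninjured joints, in C57BL/6 (horizontal axis) and STR/ort (vertical axis), with the 61 genes called lower and the 24 called higher in STR/ort in colour and 14 genes outside the axes. The genes called lower lie below the dashed line of equal responses, many of them near 0 in STR/ort and above 0 in C57BL/6.

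The 61 genes fell into 2 main patterns. In 27 of them the level rose in C57BL/6 and was not called in STR/ort, and in 21 it fell in STR/ort and was not called in C57BL/6. A further 3 rose in both strains, 3 rose in C57BL/6 and fell in STR/ort, and 7 were called in neither strain alone. No gene of the 61 fell in C57BL/6. Of the 24 genes with a higher response, 13 rose in STR/ort and were not called in C57BL/6, 3 rose in both, 2 rose in STR/ort and fell in C57BL/6, 3 fell in C57BL/6 and were not called in STR/ort, and 3 were called in neither.

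Lubricin is the boundary lubricant of cartilage. Prg4 (chromosome 1, 150449412 to 150466221, GRCm38.p6) was at 826.9, 976.5, 1006.7, 856.8 and 1274.1 CPM in uninjured and 2462.6, 2736.4, 2546.6, 2405.2 and 2753.3 CPM in injured C57BL/6 joints. In STR/ort it was at 8808.2, 18563.2, 6094.5 and 9044.9 CPM in uninjured and 7717.7, 9430.1, 10677.7, 7001.0 and 7543.8 CPM in injured joints. The joints of C57BL/6 did not overlap, those of STR/ort did, and each STR/ort joint, injured or not, was above each C57BL/6 joint. The response was 1.41 in C57BL/6 (log2 fold change, standard error 0.18, edgeR adjusted p = 1.19e-06) and -0.33 in STR/ort (standard error 0.19, adjusted p = 0.228), and the interaction was -1.74 (standard error 0.26, adjusted p = 0.000568). With 0-day joints as the control the interaction was 0.60 and not called (adjusted p = 0.115).

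Fn1 encodes fibronectin, an adhesive protein of provisional wound matrix. Its level was 1182.7, 1126.8, 1383.2, 1234.1 and 1493.3 CPM in uninjured and 4105.0, 3823.9, 3545.1, 3584.5 and 4372.0 CPM in injured C57BL/6 joints. In STR/ort it was 8173.7, 13035.2, 3974.4 and 7917.6 CPM in uninjured and 9837.0, 9986.0, 7870.9, 7103.4 and 7634.0 CPM in injured joints. The pattern was that of Prg4, with a separate rise in C57BL/6 and overlapping joints in STR/ort, where uninjured replicate 2 was the highest and replicate 3 the lowest of the group. The response of Fn1 was 1.62 in C57BL/6 (standard error 0.17) and 0.03 in STR/ort (standard error 0.18), and its interaction -1.59 (standard error 0.25, edgeR adjusted p = 0.000919). With 0-day joints as the control the interaction was 0.82 and called higher in STR/ort (adjusted p = 0.00882).

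Mmp3 encodes stromelysin-1, a protease that degrades proteoglycans and activates other metalloproteinases. Its promoter is shown because AP-1, which binds TGANTCA sites, is the classic activator of this gene. The 250 bases before the start of the gene in RefSeq (GRCm38.p6, chr9:7445572-7445821, plus strand) hold 1 match, in capitals, whose first base lies 46 bases before the start.
Mmp3: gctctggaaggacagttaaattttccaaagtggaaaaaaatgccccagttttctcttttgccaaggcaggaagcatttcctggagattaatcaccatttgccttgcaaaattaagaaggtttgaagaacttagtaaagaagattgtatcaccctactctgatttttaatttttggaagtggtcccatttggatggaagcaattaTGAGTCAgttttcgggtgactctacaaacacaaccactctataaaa
A match of TGANTCA on either strand was present in 6.87% of the 27025 promoters of the table and in 7 of the 34 promoters found there for genes with a lower response, which is a description of these letters only. Mmp3 was at 2.66, 3.68, 4.92, 3.56 and 5.6 CPM in uninjured and 19, 19.5, 17.5, 26.5 and 20.9 CPM in injured C57BL/6 joints. In STR/ort it was at 91.8, 84.1, 25.7 and 56.7 CPM in uninjured and 81.5, 107.3, 108.4, 67.8 and 102.9 CPM in injured joints. All but 1 of the uninjured STR/ort joints were above every injured C57BL/6 joint. The response was 2.35 in C57BL/6 (standard error 0.27) and 0.54 in STR/ort (standard error 0.21, edgeR adjusted p = 0.0696), with an interaction of -1.81 (standard error 0.35, adjusted p = 0.00835). With 0-day joints as the control the interaction of Mmp3 turned positive.

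Col14a1 and Adamts16 were among the 3 genes that rose in both strains and rose less in STR/ort. Col14a1 encodes collagen XIV, which binds to the surface of collagen fibrils in tendon and skin. It was at 33.8, 35.8, 54.9, 40.4 and 41.9 CPM in uninjured and 214.8, 215.9, 166.7, 196.8 and 223.8 CPM in injured C57BL/6 joints. STR/ort joints had 215.7, 217.5, 99.0 and 179.2 CPM in uninjured and 369.4, 363.9, 349.9, 348.1 and 358.8 CPM in injured joints. The joints of each strain were separate, and the highest levels were those of the injured STR/ort joints. Its response was 2.32 in C57BL/6 (standard error 0.15) and 1.01 in STR/ort (standard error 0.15), and the interaction -1.31 (standard error 0.20, edgeR adjusted p = 0.000919). With 0-day joints as the control the interaction was 1.03 and called higher in STR/ort (adjusted p = 0.000293). Adamts16, a secreted metalloprotease gene, was below 1 CPM in every uninjured C57BL/6 joint (0.393 to 0.891 CPM), and rose there by 3.73 (standard error 0.31) and in STR/ort by 1.40 (standard error 0.23), with an interaction of -2.33 (standard error 0.41, adjusted p = 0.00455). The cartilage and tendon matrix genes Comp (-1.05, standard error 0.25, adjusted p = 0.0445) and Prelp (-0.96, standard error 0.20, adjusted p = 0.0134) rose in C57BL/6, by 0.98 and 1.02, and were at -0.07 and 0.05 in STR/ort, neither of them called there. Sox5, a transcription factor of chondrocytes, had a response of 0.99 in C57BL/6 and -0.04 in STR/ort (interaction -1.02, standard error 0.24, adjusted p = 0.0482). The calls of Comp and Sox5 were marginal, since they were lost without 1 library in 16 and 15 of the 19 fits, with adjusted p up to 0.0964 and 0.0991.

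Nfasc, which encodes the adhesion molecule neurofascin, was at 1.62 to 2.5 CPM in uninjured and 6.38 to 8.04 CPM in injured C57BL/6 joints, against 8.38 to 17.2 and 13 to 18.2 CPM in STR/ort. Its joints were separate in C57BL/6 and overlapped in STR/ort (responses 1.76 and 0.18, interaction -1.57, standard error 0.23, edgeR adjusted p = 0.000568). Cdon, a co-receptor for Hedgehog proteins, was at 19.2 to 26.4 CPM in uninjured and 50.7 to 58.7 CPM in injured C57BL/6 joints, with means of 89.2 and 100.5 CPM in uninjured and injured STR/ort joints, which overlapped (interaction -1.08, standard error 0.19, adjusted p = 0.00498). Ntn1, which encodes the guidance cue netrin-1, had a response of 0.71 (standard error 0.15) in C57BL/6, where it rose, and of -0.55 (standard error 0.14) in STR/ort, where it was below the fold required (interaction -1.27, standard error 0.21, adjusted p = 0.00212). The complement gene C4b (interaction -0.97, standard error 0.22, adjusted p = 0.0385) was called in neither strain alone, at 0.55 and -0.42, and its reads can be shared with the near-identical gene C4a. Without 1 library its call was lost in 12 of 19 fits, with adjusted p up to 0.086.

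The second pattern, a fall in STR/ort without a called change in C57BL/6, was led by Megf10, a receptor for the engulfment of dying cells that is also expressed in muscle satellite cells. Megf10 was at 5.31, 6.57, 5.55, 6.24 and 5.41 CPM in uninjured and 8.96, 7.21, 7.56, 8.6 and 7.43 CPM in injured C57BL/6 joints. STR/ort joints had 21.5, 34.7, 18.7 and 18.4 CPM in uninjured and 8.01, 9.14, 10.2, 10.6 and 9.06 CPM in injured joints. Uninjured STR/ort joints stood above all others, and the injured joints of the strains overlapped. The response was 0.48 in C57BL/6 (standard error 0.15, below the fold required) and -1.30 in STR/ort (standard error 0.14), and the interaction of -1.78 (standard error 0.21, edgeR adjusted p = 2.38e-05) had the smallest p of all genes. With 0-day joints as the control it was -0.35 and not called (adjusted p = 0.195).

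Other genes with this pattern were Pla1a, a secreted phospholipase, Pcsk6, a convertase of secreted precursors, Cadm3, a cell adhesion molecule, Ccdc3, a secreted protein, and Tnxb, which encodes tenascin-X of tendon and skin. Pla1a was at 16.4 to 67.9 CPM in uninjured and 7.78 to 13.4 CPM in injured STR/ort joints, without overlap, and at 4.47 to 5.91 and 5.65 to 8.13 CPM in C57BL/6 (interaction -2.17, standard error 0.34, edgeR adjusted p = 0.000919). Tnxb was at 83.8 to 164.1 CPM in uninjured and 41.3 to 69.2 CPM in injured STR/ort joints, again without overlap, and at 38.7 to 45.8 and 35.5 to 47.5 CPM in C57BL/6 (interaction -1.27, standard error 0.23, adjusted p = 0.00493). The interactions of Pcsk6, Cadm3 and Ccdc3 were -0.98, -1.11 and -0.91, with adjusted p of 0.00239, 0.000568 and 0.00309. The injured STR/ort joints of these genes lay nearer to the C57BL/6 joints than the uninjured ones did. Htra4, a secreted protease of synovium, fell in STR/ort by 0.99 on the log2 scale (standard error 0.22), and was at 0.68 in C57BL/6 (standard error 0.23, adjusted p = 0.0534). Tnfrsf11b, which encodes osteoprotegerin, the decoy receptor that restrains osteoclasts, was at -0.48 in STR/ort and 0.53 in C57BL/6, neither called, with an interaction of -1.01 (standard error 0.19, adjusted p = 0.00835).

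In 5 genes both strains responded, in opposite directions. Sned1, an extracellular matrix gene, was at 1.71 to 4.16 CPM in uninjured and 7.27 to 11.1 CPM in injured C57BL/6 joints, and at 6.74 to 16.2 and 6.17 to 9.35 CPM in STR/ort. It rose in C57BL/6 by 1.64 and fell in STR/ort by 0.70 on the log2 scale (interaction -2.34, standard error 0.29, edgeR adjusted p = 7.35e-05). Ildr2 (interaction -1.33, standard error 0.19) and Tmem196 (interaction -3.27, standard error 0.62, adjusted p = 0.00835) moved the same way, Tmem196 at a level of 0 to 0.59 CPM in uninjured C57BL/6 joints, and DESeq2 did not call it. Adprhl1, a gene of striated muscle, and Sctr, the secretin receptor, fell in C57BL/6 and rose in STR/ort (interactions 1.48 and 1.56, adjusted p = 0.0106 and 0.0192). Sctr was at 1.28 to 2.08 CPM in uninjured and 0.618 to 1.08 CPM in injured C57BL/6 joints, and at 1.13 to 1.57 and 1.89 to 2.74 CPM in STR/ort. The joints of Sctr did not overlap in either strain, while those of Adprhl1 overlapped in both.

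**Figure D2:**
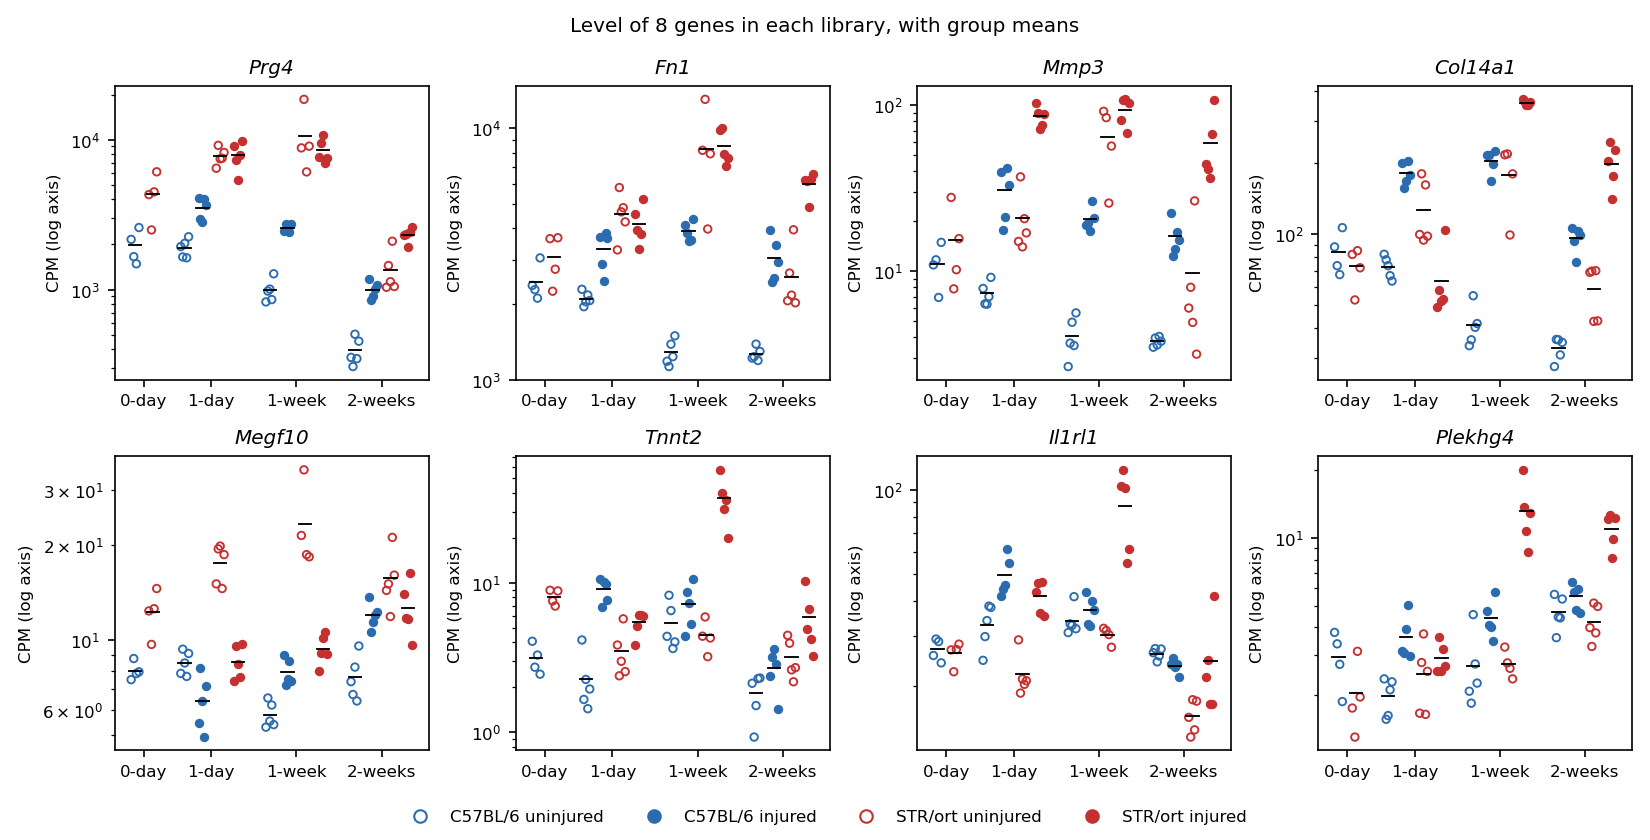
Level in CPM (log axis) of Prg4, Fn1, Mmp3, Col14a1, Megf10, Tnnt2, Il1rl1 and Plekhg4 in each C57BL/6 and STR/ort library, in order of time from 0-day to 2-weeks, with open symbols for uninjured and filled symbols for injured joints and lines at the group means. At 1-week Prg4 and Fn1 are as high in uninjured as in injured STR/ort joints, and Tnnt2 and Il1rl1 are raised in injured STR/ort joints.

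In the genes with a lower response the uninjured joints of the strains differed. Because these joints are part of the interaction, their difference at 1-week is no independent result: 55 of the 61 genes were called higher in uninjured STR/ort than in uninjured C57BL/6 joints (13.1% of all genes), and 2 were called lower (9.12%, and 22.2% in either direction), with a median log2 difference of 1.79 against 0.01 over all genes. After injury the same genes were still higher in STR/ort at the median, by 0.70, with 34 called higher (13.3% of all genes) and 6 called lower (11.8%). Other libraries showed the difference in part. In uninjured joints at 1-day, 26 of the 61 genes were called higher in STR/ort (5.73% of all genes) and 2 lower (4.74%). At 2-weeks 30 were called higher (4.92%) and 1 lower (4.86%), where 9.78% of all genes were called in either direction. Before injury, at 0-day, 3 were called higher (7.82%) and 5 lower (5.99%), with a median difference of -0.11.

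At the median, the levels of the 61 genes at 0-day lay between those of the uninjured joints of both strains at 1-week. Group means in uninjured STR/ort joints at 1-week exceeded those of STR/ort at 0-day for 58 of the 61 genes, by a median of 0.99 on the log2 scale, whereas uninjured C57BL/6 joints at 1-week exceeded C57BL/6 at 0-day for 5 genes, with a median of -0.91. Over all 17310 genes 9597 and 9404 were above 0-day, with medians of 0.05 and 0.03. The uninjured levels at 1-week helped to choose the 61 genes, so these counts describe the genes and are no independent result. Fn1, for example, was at 2247.6 to 3667.6 CPM in STR/ort and 2108.9 to 3049.4 CPM in C57BL/6 at 0-day. With 0-day joints as the control in place of the contralateral joints, the interaction turned positive for 50 of the 61 genes, 38 of them called higher in STR/ort (11.9% of all genes). It stayed below 0 for the other 11, of which 4 were called lower (9.6% of all genes). In all 3713 genes were called (21.5%). For these 50 genes the direction holds only relative to the contralateral joint. Of the 24 genes with a higher response, 17 stayed above 0 with 0-day controls, 10 of them called, and 7 turned below 0, of which 4 were called lower. Over the same groups the fast muscle markers summed to 47041 to 75758 CPM at 0-day in C57BL/6 and 105090 to 122845 CPM in STR/ort, an order of the strains opposite to that of uninjured joints at 1-week, and their part in the change was not tested.

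**Figure D3:**
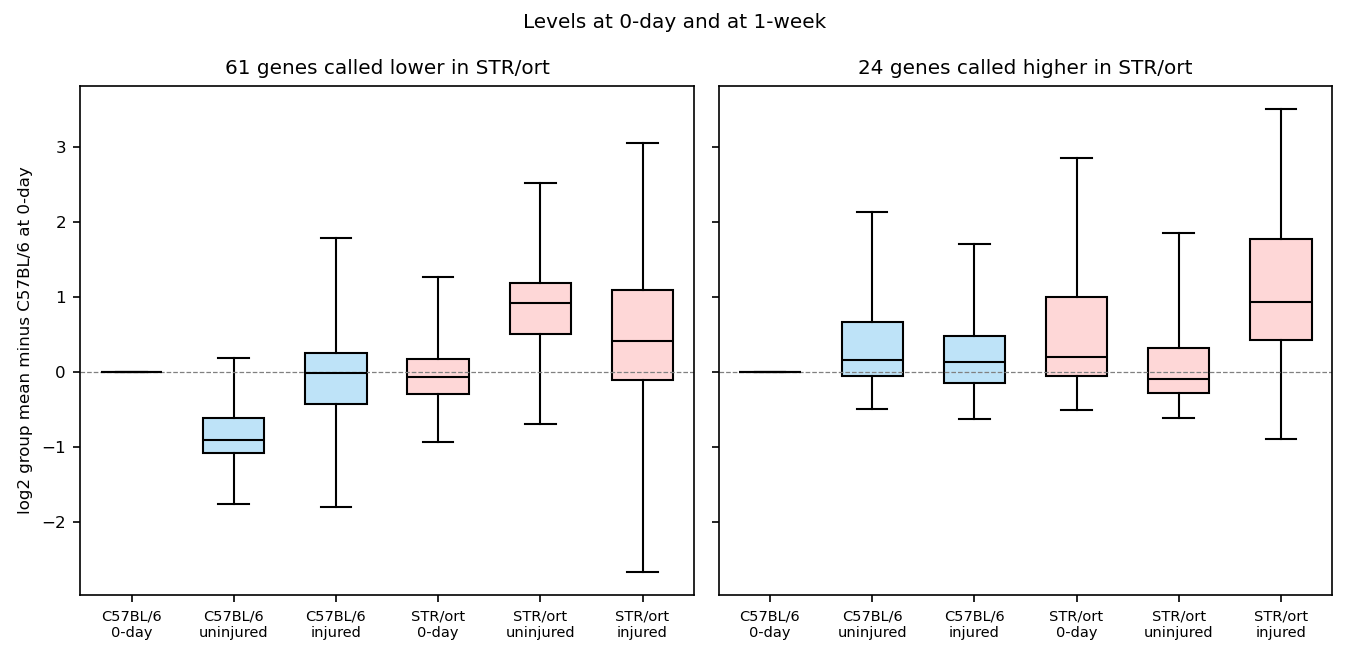
Group mean level of the 61 genes called lower (left) and the 24 called higher (right) in STR/ort, as the log2 difference from C57BL/6 at 0-day, with boxes from the lower to the upper quartile of genes, lines at the median and whiskers over the range. In the left panel the uninjured joints at 1-week lie at a median of -0.91 in C57BL/6 and 0.92 in STR/ort.

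The genes with a higher response in STR/ort were led by Tnnt2 (chromosome 1, 135836315 to 135852268), which encodes cardiac troponin T, a form of the thin filament protein also made by embryonic and regenerating skeletal muscle. Its promoter is shown because it is a classic example of a promoter with the M-CAT element, CATTCC. The 250 bases before the start of the gene used in the RefSeq table (GRCm38.p6, chr1:135836084-135836333, plus strand) hold 1 match of CATTCC, in capitals, whose first base lies 27 bases before that start. The start used there lies inside the span of the gene given above, so the end of the stretch overlaps that span.
Tnnt2: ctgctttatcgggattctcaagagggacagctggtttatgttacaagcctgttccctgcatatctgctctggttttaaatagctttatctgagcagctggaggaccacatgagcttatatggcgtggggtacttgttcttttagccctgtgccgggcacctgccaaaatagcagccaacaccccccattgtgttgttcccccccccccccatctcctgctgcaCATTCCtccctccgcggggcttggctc
CATTCC was found on either strand of 12.6% of all promoters in the table and of 2 of the 13 found there for genes with a higher response. Tnnt2 was at 4.39, 8.27, 6.53, 3.64 and 4.03 CPM in uninjured and 4.43, 8.72, 7.36, 5.29 and 10.6 CPM in injured C57BL/6 joints. STR/ort joints had 4.4, 5.92, 3.21 and 4.28 CPM in uninjured and 57.1, 39.7, 31.4, 35.7 and 20.1 CPM in injured joints. Every injured STR/ort joint was above all other joints, which overlapped. The response was 3.06 in STR/ort (standard error 0.28) and 0.50 in C57BL/6 (standard error 0.27, edgeR adjusted p = 0.293), and the interaction 2.56 (standard error 0.39, adjusted p = 0.000917). With 0-day joints as the control it was 0.98 (standard error 0.38, adjusted p = 0.0428).

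Il1rl1 encodes ST2, the receptor of the alarmin interleukin-33. It was at 30.9, 33.2, 32.8, 41.5 and 31.9 CPM in uninjured and 43.1, 33.2, 32.5, 40.0 and 37.1 CPM in injured C57BL/6 joints. In STR/ort it was at 32.0, 31.4, 30.4 and 27.4 CPM in uninjured and 103.1, 117.6, 101.6, 54.8 and 61.6 CPM in injured joints. Injured STR/ort joints lay above all others, and the injured and uninjured joints of C57BL/6 overlapped. The receptor rose in STR/ort, by 1.52 (standard error 0.16), and was at 0.15 in C57BL/6 (standard error 0.15), with an interaction of 1.37 (standard error 0.22, edgeR adjusted p = 0.000919). The ligand Il33 rose in both strains, by 1.48 in STR/ort and 1.05 in C57BL/6, and its interaction of 0.43 (standard error 0.31, adjusted p = 0.632) was not called.

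Pvr, the poliovirus receptor, an adhesion molecule seen by lymphocytes, rose in both strains and more in STR/ort, from 7.97 to 11.6 CPM in uninjured to 23.0 to 36.0 CPM in injured joints, against 7.16 to 11.1 and 11.5 to 15.8 CPM in C57BL/6 (interaction 0.99, standard error 0.19, edgeR adjusted p = 0.00835). Plpp1, which encodes a phosphatase of lysophosphatidic acid and related lipids, was at 54.3 to 62.1 CPM in uninjured and 84.8 to 115.0 CPM in injured STR/ort joints, against at most 53.7 CPM in every C57BL/6 joint (interaction 0.64, standard error 0.11, adjusted p = 0.00435). Injured STR/ort joints stood apart in both genes. The call of Plpp1 was lost without STR/ort injured replicate 3, where the interaction was 0.58. F2r, the thrombin receptor gene, rose in STR/ort from 26.6 to 33.9 CPM to 53.6 to 58.4 CPM, and its interaction of 0.59 (standard error 0.12) was close to the 1.5-fold limit, which it missed in 7 of 19 fits with adjusted p up to 0.028. Mtx2, a gene of mitochondrial protein import, had the same size (0.59, standard error 0.12) and missed the limit in 5 fits.

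Bcl6b, a transcriptional repressor of endothelium and lymphocytes, had an interaction of 0.98 (standard error 0.19, edgeR adjusted p = 0.00912), Acsl4, an enzyme that activates arachidonic acid, of 0.72 (standard error 0.15, adjusted p = 0.0134), and Egfl6, a secreted protein with EGF-like repeats, of 1.14 (standard error 0.24, adjusted p = 0.0171). All of them rose in STR/ort and were not called in C57BL/6. With 0-day joints as the control the interactions of Bcl6b (0.26) and Acsl4 (0.40) were not called, whereas that of Egfl6 was (1.5). Plekhg4 was at 2.36 to 3.27 CPM in uninjured and 8.64 to 20.1 CPM in injured STR/ort joints, and at 1.84 to 4.56 and 3.47 to 5.73 CPM in C57BL/6 (interaction 1.55, standard error 0.35, adjusted p = 0.0407). Rdh10, which makes retinaldehyde from retinol, was at 7.13 to 11.4 CPM in uninjured and 13.5 to 25.7 CPM in injured STR/ort joints (interaction 0.94, standard error 0.22, adjusted p = 0.0445). Plekhg4 and Rdh10 lost the call in 10 and 13 of the 19 fits with 1 library left out, with adjusted p up to 0.108 and 0.0898. Lmod2, a muscle actin nucleator, fell in C57BL/6 by 1.07 on the log2 scale and was at 0.48 in STR/ort, not called (interaction 1.55). With 0-day joints as the control the interaction of Lmod2 turned negative. Rdh13, a mitochondrial retinol dehydrogenase, was at -0.36 in C57BL/6 and 0.28 in STR/ort, neither called (interaction 0.65). The call of Lmod2 was lost without C57BL/6 uninjured replicate 2 (adjusted p = 0.0501), and that of Rdh13 in 6 fits with adjusted p up to 0.068.

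**Figure D4:**
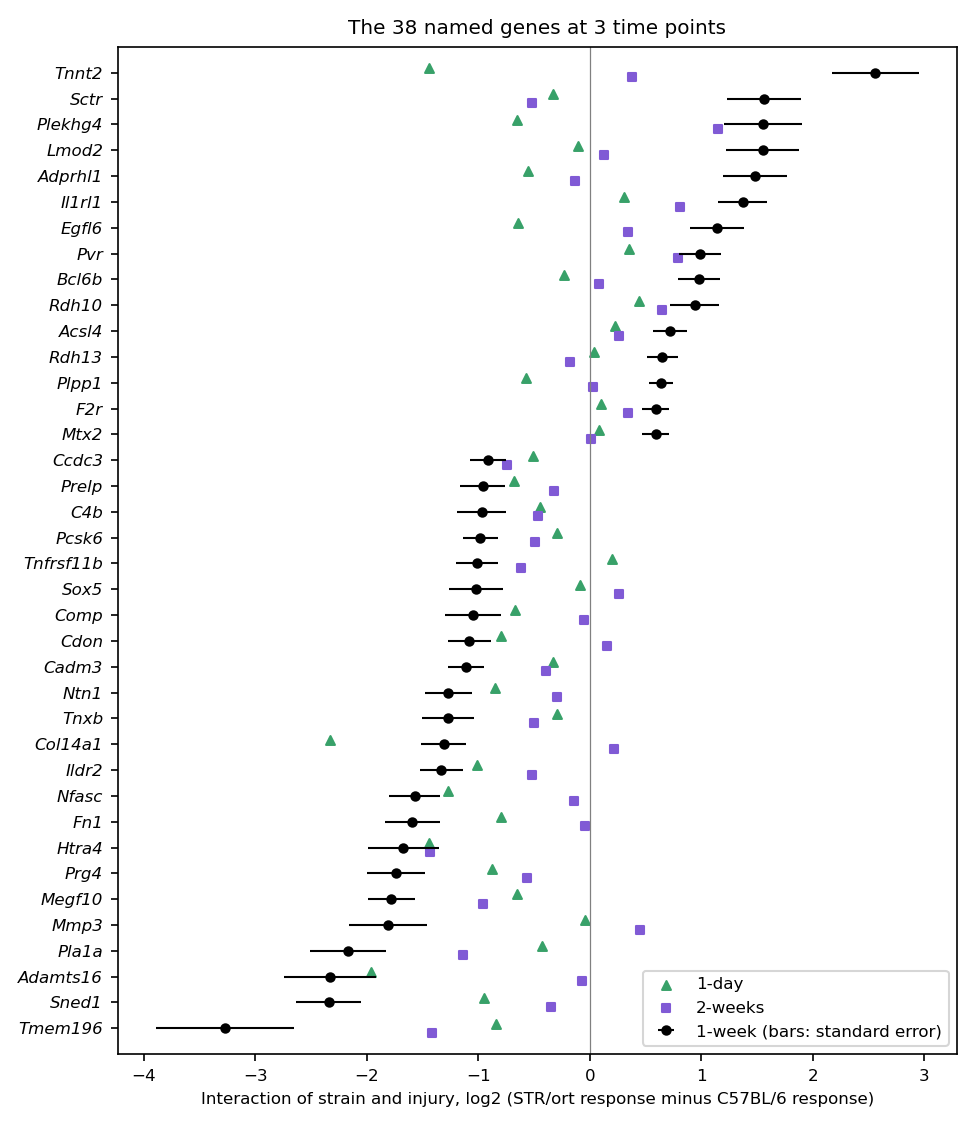
Interaction of strain and injury for the 38 named genes, as the log2 difference of the STR/ort response from the C57BL/6 response, at 1-week (circles, bars for the standard error), 1-day (triangles) and 2-weeks (squares). Tnnt2 lies at 2.56 at 1-week and at -1.44 at 1-day, and the genes called lower at 1-week lie mostly below 0 at 1-day.

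The same interaction was measured in other libraries at 1-day and at 2-weeks, the latter in experimental batch 2. At 1-day, 429 genes had a lower response in STR/ort (2.48%) and 31 a higher one (0.179%). Of the 61 genes with a lower response at 1-week, 26 were called lower at 1-day as well, which is 42.6% of the 1-week genes and 6.06% of the 1-day genes, and 0 were called higher. They include Megf10 (-0.65, edgeR adjusted p = 0.0283), Prg4 (-0.88, adjusted p = 0.0153), Fn1 (-0.80, adjusted p = 0.0167), Col14a1 (-2.33, adjusted p = 2.53e-07), Adamts16 (-1.96, adjusted p = 0.014) and Htra4 (-1.44, adjusted p = 0.0152). Mmp3 was not among them, at -0.04. The median over the 61 genes was -0.66 at 1-day and -0.19 at 2-weeks, against 0 over all genes at both.

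Of the 24 genes with a higher response at 1-week, 0 were called higher and 3 lower at 1-day. Those 3 were Tnnt2 (-1.44, edgeR adjusted p = 0.0163), Rab15 (-1.32) and H19 (-0.98), of which Rab15 and H19 are named here after their values were seen. At 1-day Tnnt2 was at 1.44 to 4.15 CPM in uninjured and 6.93 to 10.6 CPM in injured C57BL/6 joints, and at 2.39 to 5.75 and 3.84 to 6.07 CPM in STR/ort, so that only the C57BL/6 joints were separate. At 2-weeks 8 genes were called in all (0.0462%), 2 lower (0.0116%) and 6 higher (0.0347%) in STR/ort. Both of the lower genes, Htra4 (-1.43, adjusted p = 6.4e-06) and Ccdc3 (-0.74, adjusted p = 0.0102), are among the 61, and 2 of the 6 higher genes, Plekhg4 (1.15, adjusted p = 0.0201) and Arl4c (0.89, adjusted p = 0.0133), are among the 24. These 2 are 8.33% of the 24 genes, and Arl4c was likewise named after its values were seen.

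Counts of called genes in the lists below stand against 5.67% of all genes that rose and 3.54% that fell in STR/ort, 4.75% and 1.07% in C57BL/6, and 0.491% called in the interaction, so that a list of this size with 0 called interactions does not stand apart from the other genes. An unadjusted p below 0.05 was found in the interaction of 1991 of the 17310 genes. Of 14 collagen genes of fibrous tissue, 14 rose in STR/ort and 13 in C57BL/6, with medians of 1.38 and 1.43, and Col14a1 alone had a called interaction. Of 25 inflammatory cytokines and chemokines, a list taken from the study and so no independent evidence of direction, 14 rose in STR/ort and 8 in C57BL/6, and 0 had a called interaction by edgeR (2 at an unadjusted p below 0.05). Over the 24 of them with counts in both strains the interaction ran from -1.72 to 2.02 with a median of 0.06 and adjusted p of 0.245 or more. Il11 (2.27 and 1.68), Ccl7 (1.72 and 2.01) and Cxcl16 (1.16 and 0.88) rose in both strains, while Il1b (-0.06 and 0.00) and Tnf (-0.42 and -0.04) were called in neither. Ccl20 had 13 counts over the 9 STR/ort libraries and 0 over the 10 of C57BL/6, so no interaction is given for it. Of 35 metallopeptidases, also the study's list with the same limit, 25 rose and 1 fell in STR/ort and 25 rose in C57BL/6, and Mmp3 and Adamts16 alone had a called interaction, while the other 33 lay between -0.63 and 0.63 with adjusted p of 0.185 or more.

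The other called members of the lists, all with a lower response in STR/ort, were Prelp among 11 small leucine-rich proteoglycans, Fn1 among 21 activated fibroblast genes, Comp and Sox5 among 19 cartilage genes, Prg4 and Htra4 among 12 synovial markers, Tnxb among 9 tendon and ligament genes, Tnfrsf11b among 13 osteoclast genes and C4b among 11 complement genes. In the synovial list 6 genes rose and 1 fell in C57BL/6, and 3 rose and 2 fell in STR/ort, with medians of 0.74 and 0.24. Marrow neutrophil genes fell in STR/ort for 6 of 12 and in C57BL/6 for 0, with medians of -0.59 and -0.14, and osteoblast genes for 6 and 1 of 12 with medians of -0.59 and -0.14. Neither list had a called interaction, although the unadjusted p was below 0.05 for 10 of the 12 neutrophil genes. Over all genes the median interaction was -0.03.

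The muscle lists had 0 called members in the interaction by edgeR, so no difference between the strains was shown for them, and the unadjusted p was below 0.05 for 1 fast muscle and 5 slow muscle genes. Slow muscle genes fell for 10 of 12 in C57BL/6 and 6 of 12 in STR/ort, with medians of -1.50 and -0.94, and fast muscle genes for 3 and 12 of 15, with medians of -0.47 and -0.76. Of 17 genes of muscle regeneration and denervation, 9 rose and 1 fell in STR/ort, and 2 rose and 1 fell in C57BL/6. The interaction ran from -0.52 to 2.10 and was above 0 for 13 of the 17 members, against 7862 of the 17310 genes. Named from its upper end after their values were seen, the embryonic myosin Myh3 was at 2.02 in STR/ort, where it rose, and 0.68 in C57BL/6 (interaction 1.34, edgeR adjusted p = 0.146), the acetylcholine receptor subunit Chrna1 at 2.11 and 0.74 (interaction 1.37, adjusted p = 0.132) and Chrnd at 1.64 and -0.45 (interaction 2.10, adjusted p = 0.0715). The median interaction of the list was 0.54 and 8 members had an unadjusted p below 0.05. Tnnt2 itself is not on this list. Fatty acid oxidation and transport genes all had an interaction above 0 (16 of 16, median 0.36), with 1 called higher in each strain, 6 called lower in C57BL/6 and 0 in STR/ort.

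**Figure D5:**
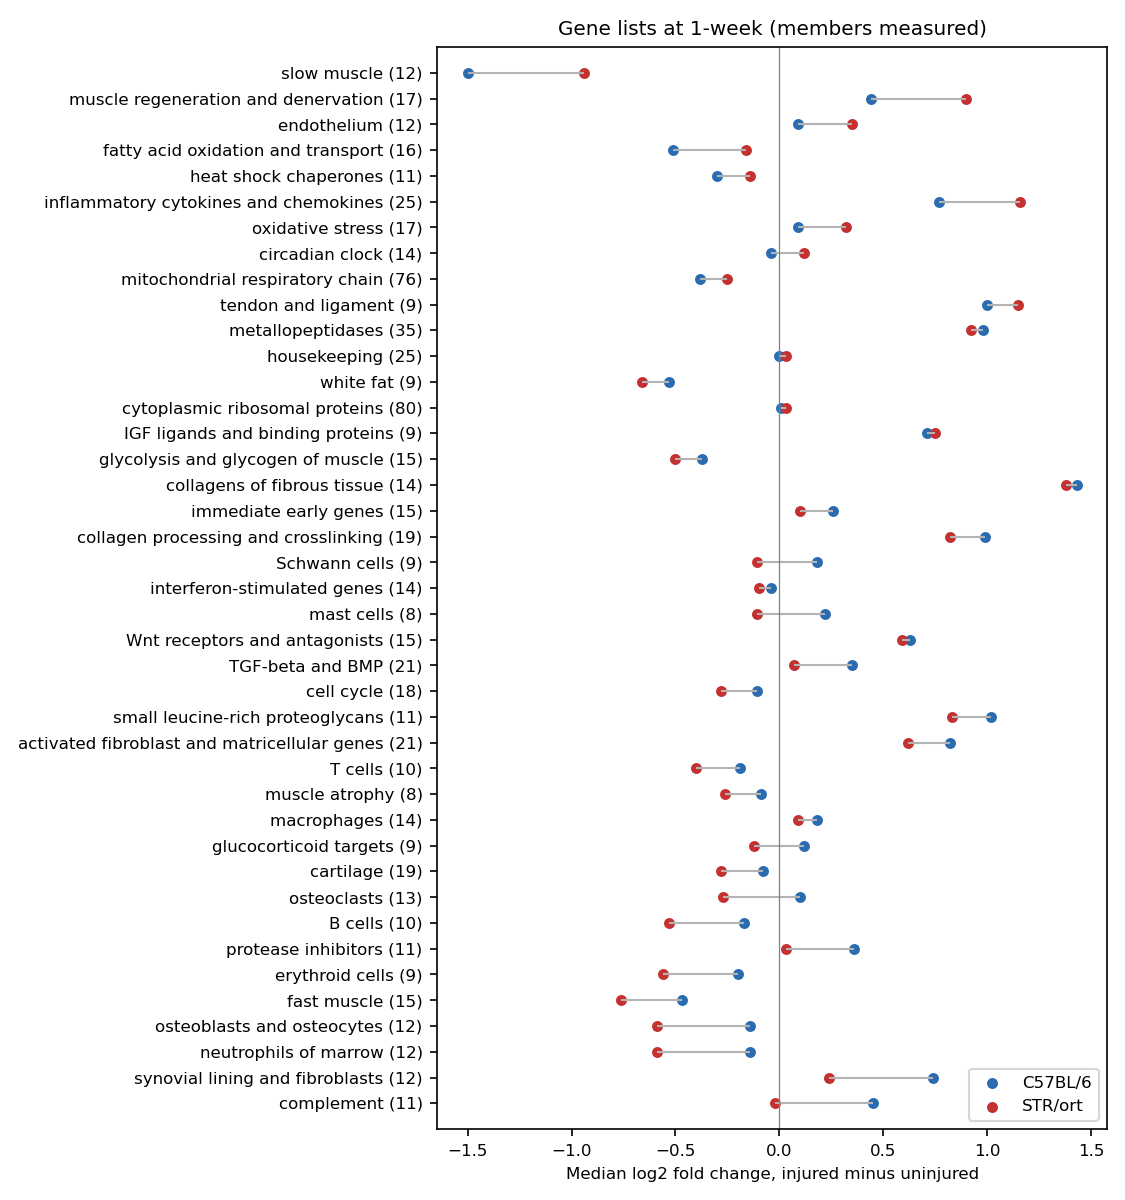
Median log2 fold change of injured over uninjured joints at 1-week in C57BL/6 and STR/ort for 41 gene lists, with the number of members measured, sorted by the median interaction. Synovial and complement genes lie at the lower end and slow muscle and muscle regeneration genes at the upper end.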

How the data were processed

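RNA was sequenced from poly(A) libraries of whole joints. The authors aligned the reads to mm10 with TopHat2 (version 2.0.11), counted reads on RefSeq genes with featureCounts and deposited whole-number counts without normalization. The use of strand in counting is not given in the sources used here, so reads of overlapping genes can be mixed. Of 17313 rows, 3 were exact repeats and left out. The study's minimum of 2 counts in 5 libraries removed 0 of the remaining 17310. Names of 24 genes had turned into dates or numbers. Replicates were compared in 190 pairs and 0 were identical.

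All 28 libraries of 1-week, MRL/MpJ included, entered 1 fit with edgeR (version 4.0.16, R 4.3.3): TMM factors, 1 mean per strain and joint, quasi-likelihood test and Benjamini-Hochberg adjustment over all genes. The 1-day, 2-weeks and 0-day libraries were fitted separately. A gene was called at an adjusted p below 0.05 and a fold above 1.5. Each standard error was derived from the log2 difference and its F value. Counts of this interaction over 17310 genes were simulated, with 4 false calls. Changes called in the right direction were 36% of 1.5-fold, 82% of 2-fold, 100% of 3-fold and 98% of 4-fold ones. A 1.5-fold change lies at the limit of the call itself. Changes were put only into genes above a minimum mean count, and each gene otherwise had the same mean in all groups. The simulated libraries were independent draws, so the dependence on single libraries was not measured by them.

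The named genes are the first 15 called genes by adjusted p for each direction (provisional symbols left out), all called members of 44 gene lists and all genes called in both strains with opposite signs. Cytokines and metallopeptidases are given by value or range. The genes and lists were chosen with earlier results of these data known. Older symbols and positions were matched through RefSeq (GRCm38.p6), which gave positions for 16662 genes. Promoters of 1 start per gene were searched over 250 bases. Alternatives were other size factors (RLE, housekeeping genes, no muscle genes), RUVg with 1 and 2 factors, DESeq2 (version 1.42.0), other filters, other libraries in the fit, a replicate block, 0-day controls, a 2-fold limit and each library left out. A pair of alternatives, a minimum within the 28 libraries and the removal of STR/ort uninjured replicates 2 and 3, were added after seeing the data.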

Additional observations from a re-analysis of the deposited data

Results flagged for a closer look

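The response to injury differed between STR/ort and C57BL/6 by a test of the difference itself in 61 genes with a lower and 24 with a higher response in STR/ort. In 5 of these genes the strains moved in opposite directions, each past the threshold, with log2 interactions of -2.34 for Sned1, -1.33 for Ildr2, -3.27 for Tmem196, 1.48 for Adprhl1 and 1.56 for Sctr. With 0-day joints as the control Sned1 (0.20), Ildr2 (0.10) and Adprhl1 (-0.88) changed sign, while Tmem196 (-0.46) and Sctr (0.28) kept theirs and were not called.

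Single libraries stood apart from their group in 5 of the 152 combinations of a named gene and a group that were examined, where chance flags about 1 in 20. The level of Il1rl1 was highest in C57BL/6 uninjured replicate 4 (41.5 CPM), that of Mtx2 in STR/ort injured replicate 3 (41.2 CPM), that of Cdon in STR/ort injured replicate 5 (124.5 CPM) and that of Prelp in C57BL/6 injured replicate 5 (422.7 CPM). Rdh13 was lowest in C57BL/6 uninjured replicate 4 (13 CPM).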

How the results depend on the processing

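The STR/ort and C57BL/6 responses of 1594 and 1007 genes stayed within 1.5 times these numbers under every alternative run for them, and the interaction did not. Against 24 genes called higher, 61 lower and 85 in all, the numbers were 55, 96 and 151 with 1 RUVg factor, 72, 93 and 165 with 2 factors, 73, 99 and 172 with DESeq2, 8, 34 and 42 in a fit of the 4 groups only, 92, 110 and 202 in a fit of all libraries and 11, 38 and 49 at a 2-fold limit. RLE size factors left 40 lower genes and housekeeping library sizes 15 higher ones. Without STR/ort uninjured replicates 2 and 3 together the numbers were 10 and 102, of which 9 and 53 are among the 24 and 61. Of the 38 named genes, 12 kept their sign but lost the call in the fit of the 4 groups only, and 8 without these replicates. With each library left out in turn they were 11 to 44 higher, 35 to 126 lower and 48 to 142 in all. The cause of these shifts was not tested. The filters and the library sizes without muscle genes kept all 3 numbers within 1.5 times. With a replicate block the numbers were 106, 158 and 264. Joints with the same number correlated at 0.181 to 0.412 in STR/ort, where all 4 uninjured libraries correlated best with their own number, but at -0.069 to 0.524 in C57BL/6, where 3 of 5 did, so the numbers were not taken to pair the joints.

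With 0-day joints as the control 2052 genes were called higher, 1661 lower and 3713 in all, and 23 of the 38 named genes changed sign, although 0 did under the other alternatives. The log2 interactions then became -0.88 for Adprhl1, -1.33 for Lmod2, 0.20 for Sned1, 0.59 for Nfasc, 0.10 for Ildr2, 0.13 for Cadm3, 0.60 for Prg4, 1.03 for Col14a1, 0.82 for Fn1, 0.32 for Pla1a, 1.05 for Ntn1, 0.93 for Pcsk6, 1.24 for Ccdc3, 0.75 for Adamts16, 0.68 for Tnxb, 0.94 for Cdon, 1.01 for Tnfrsf11b, 0.76 for Htra4, 1.70 for Mmp3, 1.10 for Prelp, 1.08 for C4b, 1.53 for Comp and 1.04 for Sox5. A further 7 kept their sign but lost the call, with -0.35 for Megf10, -0.46 for Tmem196, 0.26 for Bcl6b, 0.13 for Mtx2, 0.40 for Acsl4, 0.28 for Sctr and 0.30 for Rdh13. Genes of about 1 CPM or less, such as Tmem196, rest on few counts and have wide errors.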

Other observations

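Genes of the Hedgehog pathway were looked up because its co-receptors Cdon, Boc and Gas1 were all among the 61 genes, so this group was chosen after its values were seen. Boc rose from a group mean of 16.7 to 30.4 CPM in C57BL/6 and was at 36.9 and 38.9 CPM in uninjured and injured STR/ort joints (log2 interaction -0.81, standard error 0.15, edgeR adjusted p = 0.00498). Gas1 rose from 19.6 to 45.2 CPM in C57BL/6 and was at 72.6 and 81.9 CPM in STR/ort (interaction -1.05, standard error 0.20, adjusted p = 0.00835). None of the other 10 measured genes of the group was called, and their interactions ran from -0.92 for Ptch1 (adjusted p = 0.074), -0.85 for Gli1 (adjusted p = 0.176) and -0.67 for Hhip (adjusted p = 0.233) to -0.42 for Smo (adjusted p = 0.137), -0.31 for Sufu (adjusted p = 0.702), -0.25 for Dhh (adjusted p = 0.91) and -0.17 for Gli2 (adjusted p = 0.86). Ptch1 and Hhip fell in STR/ort, by 0.61 and 0.79 on the log2 scale, whereas the STR/ort responses of Gli3 (0.57), Smo (0.21) and Dhh (0.37) were above 0 and not called.

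Markers of tissue-resident macrophages were examined in the same way, after Lyve1, Folr2, Retnla and Fgl2 had been seen among the 61 genes. Lyve1, a hyaluronan receptor of resident macrophages and lymphatic vessels, was at 87.4 CPM in uninjured and 38.3 CPM in injured STR/ort joints, and at 19 and 16.9 CPM in C57BL/6 (interaction -1.06, edgeR adjusted p = 0.0192). Retnla, a gene of alternatively activated macrophages, was at 13.8 and 2.21 CPM in STR/ort and 6.42 and 4.11 CPM in C57BL/6 (interaction -1.98, adjusted p = 0.0451). Vsig4, a complement receptor of resident macrophages, was at 35.6 and 20.7 CPM in STR/ort and 3.28 and 4.97 CPM in C57BL/6, with an interaction of -1.42 that was not called (adjusted p = 0.0617). The 4 genes that prompted the search were the only ones of the group with a called interaction. Timd4 (-0.27, adjusted p = 0.694), Siglec1 (0.02, adjusted p = 0.992), Cd163 (-0.44, adjusted p = 0.486), Cd209f (-0.24, adjusted p = 0.88), Mrc1 (0.01, adjusted p = 0.997), Cx3cr1 (-0.21, adjusted p = 0.662) and Ccl8 (-0.57, adjusted p = 0.738) were not called.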
